A study of Homo sapiens with 6 samples.

Results

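The natriuretic peptide system was read out through 8 genes, taken as the rows of the deposited tables whose symbol is NPPB, NPPA, CORIN, FURIN, NPR1, NPR2, NPR3 or MME, out of 61860 gene rows in all. The list names the peptide precursors, the proteases that mature them, the receptors and the main degrading enzyme. NPPB was chosen by its fall in level and MME was chosen by its rise in level between the groups compared here. Their changes, intervals, calls and places among all genes are therefore given as a description, without a p-value. The cells were 786-O, a standard clear cell renal carcinoma line without functional VHL, the protein that marks hypoxia-inducible factors for degradation. One group of 3 libraries came from cells with a stable control short hairpin RNA (shRNA), and the other group of 3 from cells with a stable shRNA against METTL3, the enzyme that writes N6-methyladenosine (m6A) on mRNA. The libraries of each group are called A, B and C after the letters of the deposited columns, and the labels name no second shRNA against METTL3. The labels do not say whether the lines were clones or pools, or whether the libraries came from separate cultures, so the spread that p-values rest on here may be technical.

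Natriuretic peptides are hormones that lower blood pressure and promote the excretion of salt and water by the kidney. NPPA and NPPB encode the precursors of the atrial and B-type peptides, which are made mainly in the heart. The transmembrane protease corin and the convertase furin cut the precursors into active hormones. NPR1 and NPR2 are receptors that make cyclic GMP when a peptide binds, NPR3 removes peptides from the circulation, and neprilysin, the product of MME, degrades them at the cell surface. Neprilysin is abundant on the brush border of the renal proximal tubule.

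The labels were checked first on the targeted gene. METTL3, whose exons overlap those of TOX4 on the opposite strand, had 3874, 4060 and 4141 counts in control libraries A to C. It had 1064, 956 and 1145 in METTL3 shRNA libraries A to C, so that the groups did not overlap (log2 fold change −1.80, SE 0.08, edgeR adjusted p = 1.45e-07). Total counts per library ran from 100534896 to 103624456. Of 11 renal epithelial and renal carcinoma markers, 9 were tested, 2 were higher, 0 were lower and 7 did not pass (median log2 fold change 0.16). Of all genes tested, 33.5% passed. The carbonic anhydrase gene CA12 rose from 150.2 ± 29.3 to 399 ± 110.4 CPM (counts scaled to a common library total; SD, n = 3 for each group), with a log2 fold change of 1.41 (SE 0.18, adjusted p = 0.000154 by edgeR). The renal transcription factor PAX8 rose from 142 ± 11.2 to 177 ± 12.1 CPM (log2 fold change 0.32, SE 0.08, edgeR adjusted p = 0.0116), a call lost in 4 of 16 alternatives. PAX2 (−0.19) and NNMT (−0.27) did not pass, but they passed as lower in 3 and 8 of 16 alternatives. The proximal tubule transporters SLC34A1 and LRP2 had at most 7 and 4 counts in a library. Cells of the heart, where natriuretic peptides are chiefly made, left almost no trace. Of 8 cardiomyocyte markers, 1, NKX2-5, had enough counts to be tested, and MYH6 and MYH7 had 0 counts in every library. The 8 markers summed to between 0.391 and 0.442 CPM in the control libraries and between 0.254 and 0.409 CPM in the others. The 6 endothelial markers summed to at most 0.245 CPM. Of 6 fibroblast and mural markers, 4 were tested, 0 were higher, 1 was lower and 3 did not pass, beside 33.5% of all genes. They summed to 104 to 121 CPM in the control libraries and 100 to 109 CPM in the others. ACTA2 made up most of that sum, with means of 97.5 CPM in the control and 89.8 CPM in the METTL3 shRNA libraries. ACTA2 (−0.12), COL1A1 (−0.45) and RGS5 (0.25) did not pass. PDGFRB fell (log2 fold change −1.21, SE 0.18, edgeR adjusted p = 0.000387), a call lost in 1 of 14 alternatives, while COL1A2 had at most 1 count. The summed level of 5 leukocyte markers was 49.1 to 58.3 CPM in the control libraries and 87.7 to 114 CPM in the METTL3 shRNA libraries. CD68, a lysosomal protein, made up nearly all of that sum, since CD3E had 0 counts in every library and PTPRC at most 4.

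Of the 8 genes, 5 had enough counts to be tested, namely NPPB, FURIN, NPR2, NPR3 and MME. NPPB passed the threshold as lower and MME as higher (edgeR's quasi-likelihood test, with p adjusted by Benjamini-Hochberg over all 18740 genes tested and a threshold of 0.05). Of all genes tested, 33.5% passed it, 16.5% as higher and 16.9% as lower. As both genes were chosen for their change, nothing is read from that count. NPPA, CORIN and NPR1 had at most 16 counts in any library and were not tested.

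NPPB was the most expressed of the 8 genes per transcript length in the control cells and was 77.6% lower in the METTL3 shRNA cells. The gene (ENSG00000120937) is on chromosome 1 (GRCh38, 11857464 to 11858931, minus strand), and its exons overlap those of no other gene in GENCODE 29. It received 1724, 1750 and 2207 counts in control libraries A to C. In METTL3 shRNA libraries A to C it received 330, 301 and 528 counts. Every METTL3 shRNA library was thus far below every control library, and library C was the highest of each group. In 47.4% of all genes tested the groups of libraries did not overlap in CPM, in either direction. The level went from 17.7 ± 2.06 to 3.95 ± 1.16 CPM (SD, n = 3 each), which was 4.47-fold lower with a 95% interval from 3.50 to 5.70 (log2 fold change −2.16, SE 0.16). Of the genes tested, 0.352% had a larger change in either direction. In bulk RNA, fewer cells that make a transcript and less of it per cell cannot be told apart.

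The same fall was seen in the deposited FPKM values, which scale fragments by transcript length and library total and so allow levels to be compared between genes. NPPB had 39.22, 39.75 and 49.92 FPKM in the control libraries and 7.67, 6.93 and 12.09 FPKM in the METTL3 shRNA libraries. The groups were again well apart. The chosen reference transcript of NPPB is short, at 694 bases, so its FPKM value is high for its count.

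**Figure D1:**
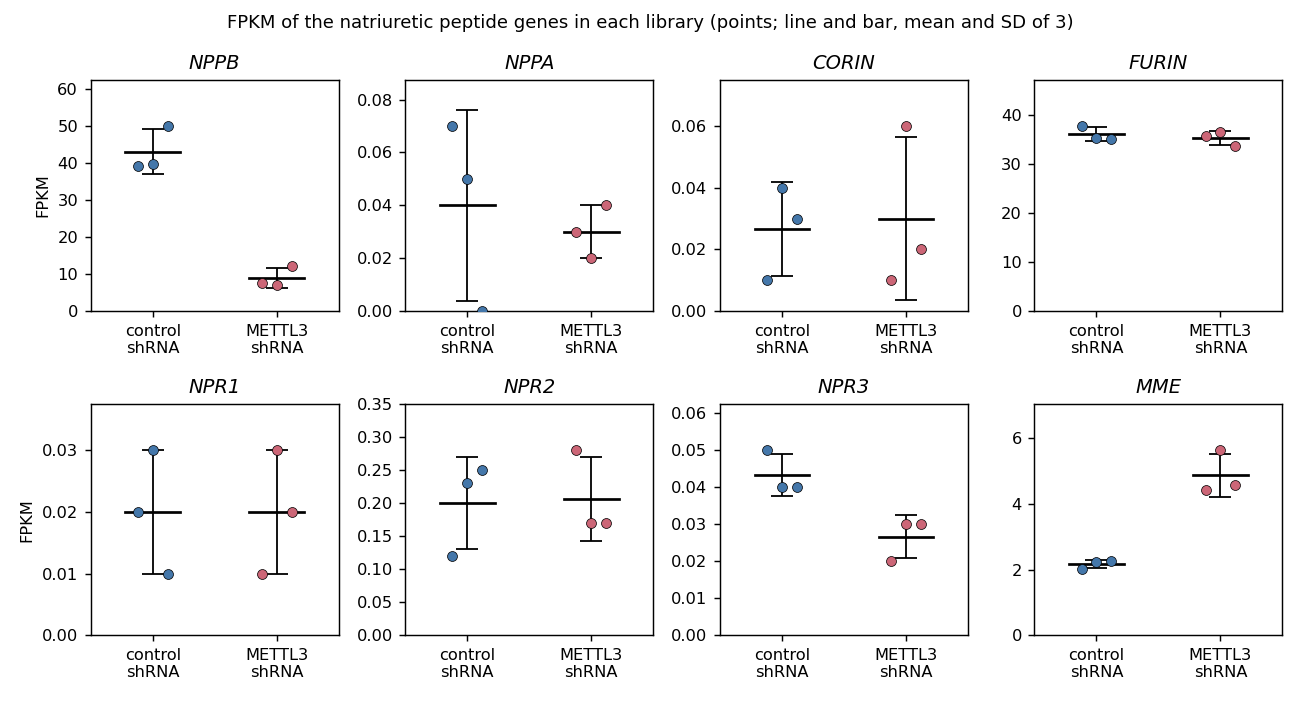
FPKM (vertical axis, linear, a scale for each gene) of the 8 genes in the 3 control shRNA libraries (blue points) and the 3 METTL3 shRNA libraries (red points), with the mean (line) and SD (bar) of each group. NPPB is lower and MME higher in every METTL3 shRNA library, FURIN lies between 33.64 and 37.72 in all 6, and NPPA, CORIN, NPR1 and NPR3 never exceed 0.07.

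NPPA, which encodes the precursor of atrial natriuretic peptide, was close to the limit of detection. The gene (chromosome 1, 11845709 to 11848345, minus strand) lies about 9 kb from NPPB. It had 4, 3 and 0 counts in control libraries A to C and 2, 1 and 2 counts in METTL3 shRNA libraries A to C. These 12 counts allow a ratio of the METTL3 shRNA group to the control group anywhere between 0.196 and 2.87 (exact binomial 95% interval on the summed counts, counting error only), so a change of NPPA was not detectable at this depth. Its exons overlap those of CLCN6 on the opposite strand, so that even these few counts are less certain.

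Of 11 genes tested within 200 kb of NPPB, 2 were higher, 0 were lower and 9 did not pass, beside 33.5% of all genes. The nearest tested gene was CLCN6, a chloride transporter, with a log2 fold change of 0.0051 (SE 0.09, edgeR adjusted p = 0.971). PLOD1, a collagen lysyl hydroxylase, had −0.0095 (SE 0.09, edgeR adjusted p = 0.944). Those past the threshold were AGTRAP, which encodes a protein that binds the angiotensin receptor (0.22, SE 0.08, edgeR adjusted p = 0.0419), and MAD2L2 (0.27, SE 0.09, edgeR adjusted p = 0.0280). Both calls were lost with library size scaling, the first in 10 and the second in 8 of 16 alternatives.

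**Figure D2:**
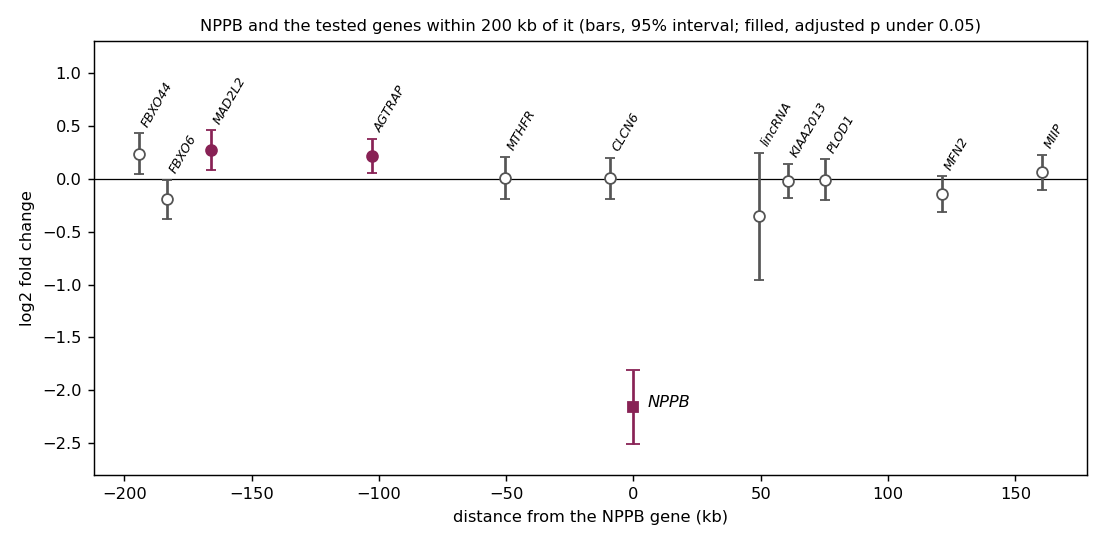
Log2 fold change (vertical axis, METTL3 shRNA against control shRNA, edgeR) of NPPB (square) and of the 11 tested genes within 200 kb of it (circles) against distance from the NPPB gene in kb, with 95% intervals and filled symbols for adjusted p under 0.05. NPPB stands at −2.16 while the neighbours lie between −0.35 and 0.27.

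The proteases that mature the precursors differed widely in level. FURIN, the convertase that cuts the B-type precursor, lies on chromosome 15 (90868592 to 90883458, plus strand). It had 13967, 12795 and 13015 counts in control libraries A to C and 12534, 13328 and 11902 in METTL3 shRNA libraries A to C. The groups overlapped, and the level was 124 ± 8.74 CPM in the control group and 129.5 ± 9.60 CPM in the METTL3 shRNA group (SD, n = 3 each). The log2 fold change was 0.06 (SE 0.08, edgeR adjusted p = 0.605), with a 95% interval from −0.12 to 0.24, and its sign turned with library size scaling (−0.05). CORIN, the protease that cuts the atrial precursor (chromosome 4, 47593998 to 47838106, minus strand), had 4, 9 and 16 counts in the control libraries and 5, 7 and 8 in the others. The groups overlapped, and the ratio of their summed counts lay between 0.406 and 1.39 by counting error alone.

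Related proteases were read from lists that were not picked for how their members moved. Of 8 other proprotein convertases, 5 were tested, 1 was higher and 0 lower (median log2 fold change 0.10, against −0.0030 and 33.5% called for all genes tested). PCSK4 rose from 3.21 ± 0.16 to 5.67 ± 0.97 CPM (SD, n = 3 each; log2 fold change 0.82, SE 0.14, edgeR adjusted p = 0.000783), although its exons overlap those of REEP6 on the opposite strand. PCSK5 (0.10), PCSK6 (0.14) and PCSK7 (−0.22, edgeR adjusted p = 0.0868) did not pass. PCSK7 passed as lower in 4 of 16 alternatives, with a log2 fold change between −0.46 and −0.15 over all of them. PCSK1, which processes hormones in endocrine cells, had at most 1 count in a library. Of 11 transmembrane serine proteases related to corin, 6 were tested, with 1 higher and 0 lower (median 0.06), beside 33.5% of all genes. That member was TMPRSS2, with 8 to 22 counts in a library (1.17, SE 0.37, edgeR adjusted p = 0.0263), and its call was lost in 7 of 13 alternatives.

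The receptors were scarce. NPR2, the guanylyl cyclase receptor for C-type natriuretic peptide (chromosome 9, 35792154 to 35809732, plus strand), had 33, 45 and 67 counts in control libraries A to C and 46, 27 and 40 in METTL3 shRNA libraries A to C. The groups overlapped (log2 fold change −0.22, SE 0.30, 95% interval −0.86 to 0.43, edgeR adjusted p = 0.612). The direction turned without control library C, to 0.07. Its exons overlap those of SPAG8 on the opposite strand. NPR3, the clearance receptor (chromosome 5, 32689070 to 32791724, plus strand), had 25, 24 and 29 counts in the control libraries and 15, 19 and 21 in the others. The METTL3 shRNA libraries were all below the control libraries, as groups did not overlap in 47.4% of all genes tested, but the difference did not pass the test (log2 fold change −0.37, SE 0.29, 95% interval −1.0 to 0.27, edgeR adjusted p = 0.363). NPR1, the guanylyl cyclase receptor for the atrial and B-type peptides (chromosome 1, 153678637 to 153693992, plus strand), had 7, 9 and 6 counts in the control libraries and 5, 9 and 6 in the others. The groups overlapped, with a ratio of summed counts between 0.517 and 1.92 by counting error alone.

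Other ligands of this kind and the cyclic GMP pathway below the receptors were also read. NPPC, the precursor of C-type natriuretic peptide, had between 0 and 7 counts in a library, OSTN, a ligand of NPR3, had 0 in all 6, and the guanylin genes GUCA2A and GUCA2B had at most 1. Of 23 genes of cyclic GMP signalling, 11 were tested, 1 was higher, 0 were lower and 10 did not pass (median −0.01), beside 33.5% of all genes called. The phosphodiesterase gene PDE10A rose from 79.9 ± 7.45 to 97.5 ± 12.8 CPM (SD, n = 3 each; 0.29, SE 0.10, edgeR adjusted p = 0.0401). That call was lost in 7 of 16 alternatives, among them library size scaling and the fits without control library A or C or METTL3 shRNA library B. GUCY1B1, a subunit of the nitric oxide receptor, had a log2 fold change of 0.45 (SE 0.18, edgeR adjusted p = 0.0754). It passed in 2 of 16 alternatives, and its log2 fold change lay between 0.093 and 0.61 over all of them. Cyclic GMP-dependent kinase genes were nearly silent, with at most 2 counts for PRKG1 and at most 13 for PRKG2.

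MME rose in every METTL3 shRNA library. The gene, which encodes the membrane metalloprotease neprilysin (ENSG00000196549, CD10), lies on the plus strand of chromosome 3, from 155024124 to 155183729. It received 697, 736 and 686 counts in control libraries A to C, and 1707, 1820 and 1615 counts in METTL3 shRNA libraries A to C. Within each group the libraries lay close together, and the gap between the groups was several times their spread. The groups did not overlap, as in 47.4% of all genes tested. The level went from 6.61 ± 0.34 to 17.6 ± 1.36 CPM (SD, n = 3 each), which was 2.67-fold higher with a 95% interval from 2.32 to 3.06 (log2 fold change 1.42, SE 0.09). Of all genes tested, 1.77% had a larger change in either direction.

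In the deposited FPKM values MME stood at 2.02, 2.23 and 2.26 in the control libraries and at 4.42, 5.63 and 4.57 in the METTL3 shRNA libraries. The groups did not overlap on that scale either. The log2 fold change was 1.13 on the log2(FPKM + 0.1) scale and 0.88 on the log2(FPKM + 1) scale (limma), both below the 1.42 of the counts. The log2 ratio of the mean FPKM values, with no pseudocount, was 1.17, and the counts gave 1.304 with library size scaling. MME shares exon positions with MME-AS1 on the opposite strand, a gene with at most 1 count in a library. The only other tested gene within 200 kb of MME was PLCH1, a phospholipase, at −0.17 (SE 0.11, edgeR adjusted p = 0.243).

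**Figure D3:**
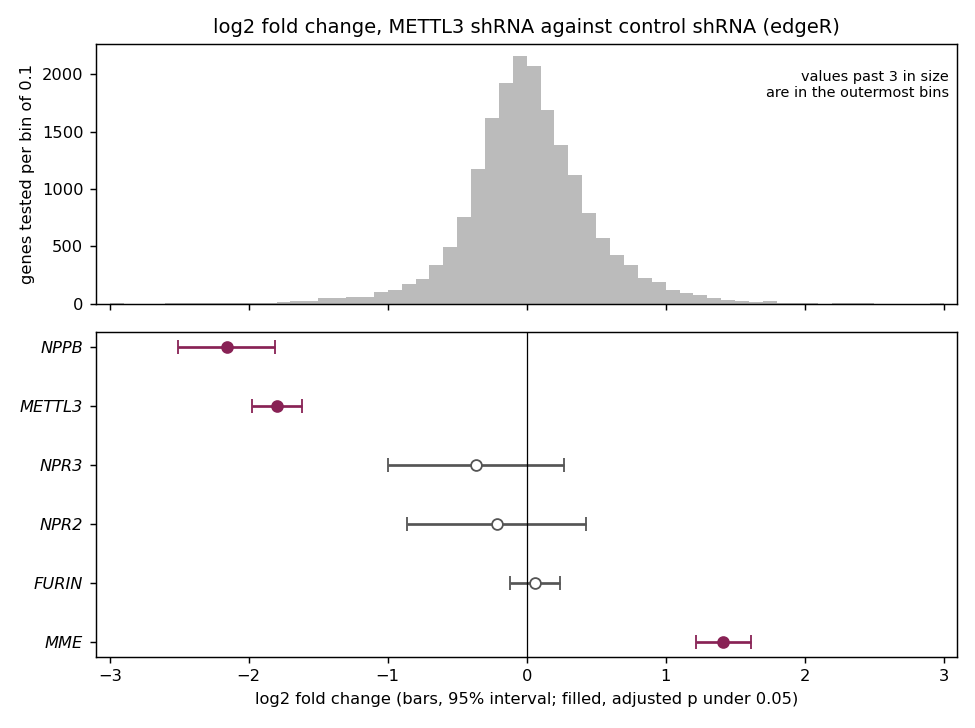
Top, number of genes in each bin of log2 fold change (METTL3 shRNA against control shRNA) over the 18740 genes tested. Bottom, log2 fold change with 95% interval of the 5 tested natriuretic peptide genes and METTL3, filled where the edgeR adjusted p was under 0.05, with NPPB at −2.16 and MME at 1.42 in the tails and the intervals of NPR3, NPR2 and FURIN spanning 0.

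Neprilysin has relatives and functional partners among the peptidases. Of the 6 other genes of the neprilysin family, 3 were tested and 0 passed in either direction with edgeR, DESeq2 or limma-voom. With edgeR, 33.5% of all genes passed. Of the 3, 2 had an unadjusted p under 0.05 in edgeR (median log2 fold change 0.41). That median was 0.22 with a filter of 1 CPM and −0.11 in the filtered FPKM fits, which tested fewer of these genes. ECE1, the endothelin-converting enzyme, was by far the most expressed of them at 785 ± 49.3 and 801 ± 33.9 CPM (SD, n = 3 each; 0.03, SE 0.09, edgeR adjusted p = 0.813). KEL (0.68, SE 0.28, edgeR adjusted p = 0.0796) and PHEX, which acts in phosphate balance (0.41, SE 0.18, edgeR adjusted p = 0.0934), were weakly expressed. KEL passed in 1 of 13 alternatives, without control library C (0.90, edgeR adjusted p = 0.0488), and PHEX passed in 1 of 14, the unfiltered log2(FPKM + 1) fit (limma adjusted p = 0.0243). Of 12 further peptidases that act on vasoactive peptides, 8 were tested, 1 was higher, 2 were lower and 5 did not pass (median −0.02), beside 33.5% of all genes called. ANPEP, aminopeptidase N, rose from 22.7 ± 3.08 to 37.3 ± 5.29 CPM (SD, n = 3 each; 0.72, SE 0.12, edgeR adjusted p = 0.000614). DPP4, dipeptidyl peptidase 4, fell by 0.40 on the log2 scale (SE 0.08, edgeR adjusted p = 0.00311), and PREP, prolyl endopeptidase, fell by 0.27 (SE 0.08, edgeR adjusted p = 0.0187). The call of PREP was lost in 5 of 16 alternatives, among them the fits without control library B or C or METTL3 shRNA library B or C. The insulin-degrading enzyme IDE, which also cuts natriuretic peptides, stood at −0.22 (SE 0.08, edgeR adjusted p = 0.0571) and passed in 7 of 16 alternatives.

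Per transcript length, the order of the genes in the control cells was NPPB, FURIN, MME, NPR2, NPR3, NPPA, CORIN and NPR1. Mean FPKM was 43.0 for NPPB, 36.1 for FURIN, 2.17 for MME and 0.20 for NPR2. The control ranges of these 4 genes did not overlap with each other or with those of the remaining genes. NPR3, NPPA, CORIN and NPR1, with means of 0.02 to 0.04, could not be told apart from their neighbours in the order, since their ranges overlapped. In the METTL3 shRNA cells FURIN came first, at 35.2 FPKM, followed by NPPB at 8.90 and MME at 4.87, and the ranges of these 3 did not overlap. The ratio of NPPB to MME, both in FPKM, was 19.4, 17.8 and 22.1 in control libraries A to C and 1.74, 1.23 and 2.65 in METTL3 shRNA libraries A to C. NPPB thus exceeded MME per length in every library, by a much smaller ratio in the METTL3 shRNA cells. As NPPB was chosen by its fall and MME by its rise, the smaller ratio follows from that choice.

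Because METTL3 places m6A preferentially in a short sequence context, its most frequent form, GGACT as written in DNA letters, was searched on the sense strand in 1 coding transcript per gene from GENCODE 29. A match is only a description of the sequence, and no methylation was measured here. Of 13820 tested protein-coding genes, 91.1% had at least 1 match, with a median of 0.947 per kb. NPPB had 1 match in 694 bases, or 1.44 per kb, which is more than in 76.0% of those genes. MME had 7 in 5622 bases, or 1.245 per kb, more than in 66.9%. FURIN, NPR1, NPR2 and CORIN had between 1.38 and 1.65 per kb, NPPA had 2.36 and NPR3 had 0.681. The densities of the gene that fell and the gene that rose lay within the range of the members that did not pass the test. That of NPPB rests on 1 match, so little can be read from it. A link between these matches and the changes was not tested. The matches of NPPB and MME are shown with 10 bases on each side and the motif in capitals, since these are the 2 transcripts that changed. The match of NPPB and the first 4 of MME lie in coding sequence, and the last 3 of MME lie after the stop codon.
NPPB site 1: gttcagcctcGGACTtggaaacgtc
MME site 1: aaacagcgatGGACTccactggaga
MME site 2: gttgactggtGGACTcaacagtctg
MME site 3: attacttcctGGACTtgacctaaat
MME site 4: aggattattgGGACTttgcagaact
MME site 5: ttttcaaattGGACTttcaaaatta
MME site 6: ttctattgtgGGACTtattacaatt
MME site 7: agcctttaatGGACTtatttcttca

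Transcription factors known to act on the natriuretic peptide promoters in the heart were partly present in these cells. Of 25 listed, 18 were tested, 0 were higher, 6 were lower and 12 did not pass, with a median log2 fold change of −0.19. Of all genes tested, 33.5% passed in either direction and 16.9% as lower, with a median of −0.0030. A link between these factors and the level of NPPB was not tested. The immediate-early factor EGR1 fell from 5.86 ± 1.59 to 3.46 ± 0.55 CPM (SD, n = 3 each; −0.76, SE 0.18, edgeR adjusted p = 0.00708), although 1 control library lay within the range of the METTL3 shRNA libraries. TEAD1, the partner of YAP at muscle promoters, fell from 182 ± 3.75 to 145.3 ± 19.96 CPM (−0.33, SE 0.10, edgeR adjusted p = 0.0185). MRTFA, a coactivator of SRF, fell by 0.26 (SE 0.08, edgeR adjusted p = 0.0253) and YY1 by 0.22 (SE 0.07, edgeR adjusted p = 0.033). GATA6, a factor of the GATA family, fell by 0.25 (SE 0.09, edgeR adjusted p = 0.0429). The cardiac factors GATA4, GATA5, TBX5, HAND2 and MYOCD had at most 1 count in a library. The cardiac factor NKX2-5 had 23, 35 and 30 counts in control libraries A to C and 14, 13 and 22 in METTL3 shRNA libraries A to C. It did not pass (−0.71, SE 0.32, edgeR adjusted p = 0.107), and passed as lower in 1 of 13 alternatives. The number lower was 3 without control library A, 2 without control library B or C or METTL3 shRNA library A or B, and 9 with library size scaling. MRTFA, YY1 and GATA6 have exons that overlap genes on the opposite strand.

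Among 24 vasoactive peptides and receptors, several of them substrates of neprilysin, 10 were tested, 3 were higher, 2 were lower and 5 did not pass (median −0.07). Of all genes tested, 33.5% passed. Endothelin 2, EDN2, a vasoconstrictor, had 9163, 9353 and 10288 counts in control libraries A to C and 4314, 3666 and 6845 in METTL3 shRNA libraries A to C. All METTL3 shRNA libraries were below the control libraries, and groups did not overlap in 47.4% of all genes tested. For EDN2, library C was the highest of each group, as for NPPB (log2 fold change −0.83, SE 0.16, edgeR adjusted p = 0.0017). AGT, the precursor of angiotensin, fell from 11.7 ± 1.39 to 7.19 ± 0.84 CPM (−0.70, SE 0.11, edgeR adjusted p = 0.000677). VIP, the vasodilator vasoactive intestinal peptide, rose from 0.30 to 0.52 CPM (0.81, SE 0.25, edgeR adjusted p = 0.023), and ADM2 and the apelin gene APLN each rose by 0.34 (SE 0.12 for both). The call of VIP was lost in 3 of 13 alternatives, that of ADM2 in 8 of 16 and that of APLN in 9 of 16. The number higher was 0 without METTL3 shRNA library A, and 1 without control library B or C, without METTL3 shRNA library B or with library size scaling. Receptors for endothelin (EDNRA, EDNRB) and angiotensin (AGTR1) had at most 1 count in a library.

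**Figure D4:**
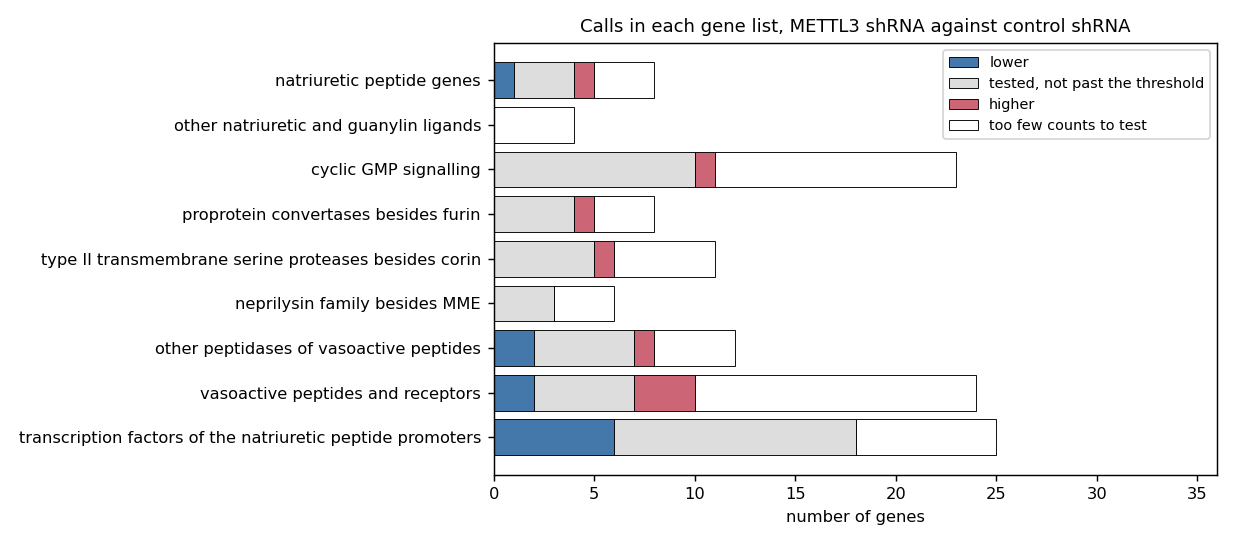
Number of genes (horizontal axis) in each list that were lower (blue), tested but not past the threshold (grey), higher (red) or had too few counts to test (white), METTL3 shRNA against control shRNA, edgeR adjusted p under 0.05. The transcription factor list holds 6 lower and 0 higher of 18 tested, and the list of other natriuretic and guanylin ligands has no tested member.

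The genes whose levels followed NPPB and MME most closely were taken by Pearson correlation of log2 CPM over the 6 libraries, among 11386 protein-coding genes of at least 2 CPM on average. All libraries share the split into groups, so that any gene with a clear group difference scores high, and 1820 genes exceeded 0.9 with NPPB and 1526 with MME. Closest to NPPB were the prolyl hydroxylase OGFOD1 (r = 0.9997), the RNA methyltransferase NSUN2 (0.998), ZNF606 (0.998), the tRNA methyltransferase subunit TRMT6 (0.998) and FBXO22 (0.998). Their log2 fold changes, from −0.26 for ZNF606 to −0.67 for TRMT6, were far smaller than that of NPPB. Closest to MME were MALL (0.999), the synaptotagmin SYT13 (0.998), the protease BACE2 (0.998), the kinase RPS6KA5 (0.998) and CFAP69 (0.997), with log2 fold changes from 0.29 for MALL to 2.40 for SYT13.

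**Figure D5:**
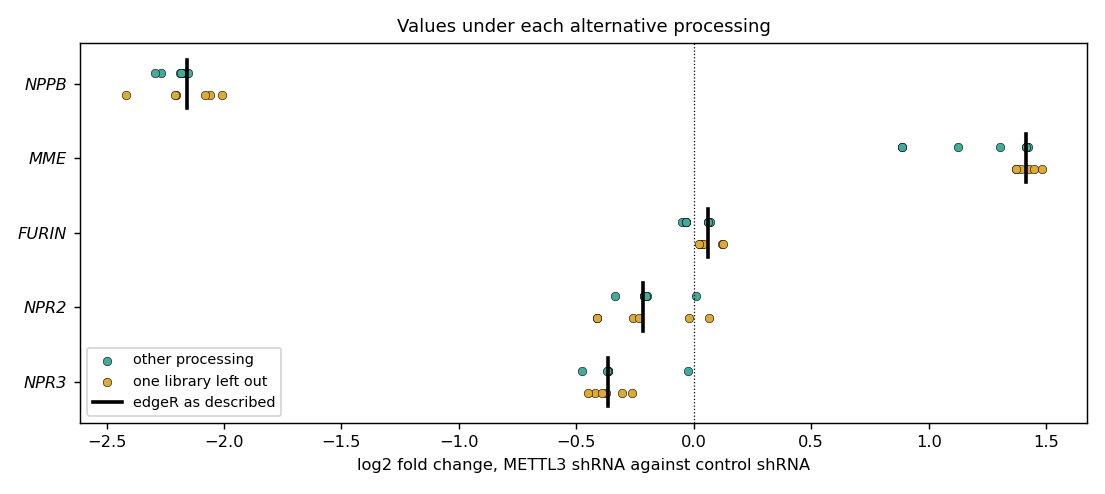
Log2 fold change (horizontal axis) of the 5 tested natriuretic peptide genes as described (black line), under other processing (green points) and with 1 library left out (yellow points). NPPB lies between −2.42 and −2.01 and MME between 0.88 and 1.48, and points of FURIN and NPR2 fall on both sides of 0. NPPB and MME were chosen by their change in these same libraries, so their ranges are no sign of stability.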

How the data were processed

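RNA depleted of ribosomal RNA was sequenced from 6 libraries. The authors deposited whole-number counts and FPKM values per gene. STAR 2.7.10b, Salmon and GRCh38 are named in the submitters' processing notes, without their roles, with strand use not given in the sources used here. The 3 columns not named for the control shRNA were assigned to METTL3 shRNA by elimination. Counts were tested with edgeR 4.0.16 (filterByExpr, TMM, quasi-likelihood, Benjamini-Hochberg over 18740 genes) in R 4.3.3, after the procedure was tested on simulated data. CPM are counts per TMM-adjusted library total. Standard errors came from the F statistic. Alternatives used DESeq2 1.42.0, limma 3.58.1, other scalings and filters, FPKM, a block and libraries left out. No library looked like a second copy of another (chi-square over degrees of freedom within a group, at least 16.5). Positions and overlaps are from GENCODE 29 on GRCh38. Genes named were the members, METTL3, up to 4 members of each list by p besides those at or near 0, neighbours within 200 kb and 5 genes closest in pattern. Members, lists and this rule were chosen with earlier results of these data known, and members named because they were the only ones called were chosen after their values were seen.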

Additional observations from a re-analysis of the deposited data

How the results depend on the processing

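METTL3 kept its direction and stayed past the threshold in all 16 alternatives (log2 fold change −1.91 to −1.63). The number of members changed was 2 in each, namely NPPB and MME, which were chosen by their change in these same libraries, so this is a description and no sign of stability. FURIN turned from 0.06 to −0.049 with library size scaling and to −0.033 in each FPKM fit. NPR2 turned from −0.22 to 0.0084 with log2(FPKM + 1) without a filter and to 0.066 without control library C (−0.41 to 0.066 with 1 library left out). Of other named genes not past the threshold, PCSK5 turned to −0.011 with library size scaling, to −0.0037 with log2(FPKM + 1), filtered or not, and to −0.0060 with log2(FPKM + 0.1). ECE1 turned to −0.080 with library size scaling, to −0.11 in each FPKM fit and to −0.011 without control library B (−0.011 to 0.080 with 1 library left out), and KEL to −0.020 with unfiltered log2(FPKM + 1). The cause was not tested. The number of genes changed, 6270, was 3271 with log2(FPKM + 1) without a filter, and 4012 (without METTL3 shRNA library B) to 6589 with 1 library left out. The number changed in the lists besides the members, 17, was 9 in that FPKM fit and 8 to 17 with 1 library left out. Library size scaling shifted the median over all genes from −0.0030 to −0.11 (log2), and with it the percentage of changed genes that were higher, from 49.4% to 29.6%, and the FPKM fits gave 29.7% to 31.4%. Between libraries of the same column letter, the correlations of deviations were −0.02, −0.05 and 0.17 for A, B and C. Of the 3 control libraries, 1, library C, correlated best with its own letter. These 3 values are too few to decide whether the letters pair the libraries. With the replicate block 6985 genes, 2 members and 19 list genes were changed, with NPPB at −2.19 and MME at 1.41. Depth limits NPPA, CORIN and NPR1 to counting intervals, and NPR2 and NPR3 to wide ones.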
